A study of Mus musculus with 12 samples.

Results

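The TNF superfamily ligands described here are 10 genes, Tnf, Lta, Ltb, Tnfsf8, Tnfsf9, Tnfsf10, Tnfsf11, Tnfsf13b, Tnfsf14 and Tnfsf4, out of 49315 genes in a table of sequencing read counts from mouse immune cells. They were chosen by gene symbol, through the Ensembl identifier of each row, and not by a measured value. Earlier results of these data were known when they were chosen. The study cultured group 2 innate lymphoid cells (ILC2s, lymphocytes of tissues that release type 2 cytokines) and eosinophils (granulocytes of allergic inflammation) from C57BL/6 mice alone or together, and compared the RNA of each cell with and without the other. The 12 libraries form 4 groups of 3, namely ILC2s cultured with eosinophils, ILC2s cultured alone, eosinophils cultured with ILC2s and eosinophils cultured alone.

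The ILC2s of both ILC2 groups came from lung, were sorted, were expanded in IL-33, IL-25, IL-2 and IL-7, and then spent 48 h in IL-2 and IL-7 only. The eosinophils of both eosinophil groups came from peripheral blood as the cells that beads against B220 and CD90 left behind, and spent 24 h in IL-33. All cells were washed and kept for 24 h in medium without cytokines, then parted by flow cytometry, so every group, the cultures alone included, had been exposed to cytokines before. The labels do not say whether replicates came from separate mice or cultures, and p-values therefore measure only the spread between these libraries, which may be technical.

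Ligands of the TNF superfamily are mostly membrane proteins that act as trimers on a neighbouring cell, and some are also shed or secreted. They bind receptors of the TNF receptor superfamily, which lead through TRAF adaptors to NF-kB signalling or, for receptors with a death domain, to caspase activation. In allergic lung, members such as OX40 ligand, RANKL, LIGHT and TNF are known as signals between innate cells, T cells and the airway wall.

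Library totals were 16769929 to 22928961 counts. Levels are given as CPM, read counts relative to the library total, after TMM scaling over all 12 libraries, and 3 counts in a library correspond to 0.105 to 0.2 CPM. All 6 ILC2 markers and all 6 eosinophil markers were found at 1 CPM or more in both groups of the cells they mark, with summed levels of 3360 to 3790 CPM in ILC2s and 7830 to 11300 CPM in eosinophils. Read per library, eosinophil markers in ILC2s stood at a median of 0.0279% of the level in cocultured eosinophils after coculture and at 0.0202% in ILC2s alone. ILC2 markers in eosinophils stood at 0.0937% of the level in cocultured ILC2s after coculture and at 0.217% in eosinophils alone, with Klrg1 the highest of them at 2.51% and 4.46%. In bulk RNA, fewer cells that express a gene and less of its RNA per cell cannot be told apart.

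Ltb was the most abundant of the 10 ligands per length in all 4 groups. Next came Tnfsf10 in ILC2s with eosinophils, and Tnfsf14 in ILC2s alone and in both eosinophil groups. Levels were read per kilobase of exon to compare genes, with all annotated exons of a gene joined. The order of ligands depends on that length, and by CPM Tnfsf10 was above Ltb in ILC2s with eosinophils (314 and 103 CPM). Per kilobase, the 10 ligands summed to 193 ± 9.30 CPM per kb in ILC2s with eosinophils, 382 ± 23.1 in ILC2s alone, 309 ± 16.4 in eosinophils with ILC2s and 337 ± 37.8 in eosinophils alone (SD, n = 3 each). Ltb, the membrane anchor of the lymphotoxin heterotrimer, made up 35.0 ± 2.24% of that sum in ILC2s with eosinophils and 75.1 ± 0.522% in ILC2s alone. Tnfsf10, which encodes the death ligand TRAIL, made up 30.9 ± 1.67% in ILC2s with eosinophils and 4.72 ± 0.391% in ILC2s alone. Tnfsf14 made up 17.2 ± 0.459% and 7.86 ± 0.0795% in the same groups. In eosinophils Ltb, Tnfsf14 and Tnf together made up nearly the whole sum, with shares of 54.4 ± 1.48%, 35.8 ± 1.59% and 9.48 ± 0.174% after coculture against 50.9 ± 2.23%, 34.3 ± 1.88% and 13.2 ± 0.348% alone.

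**Figure D1:**
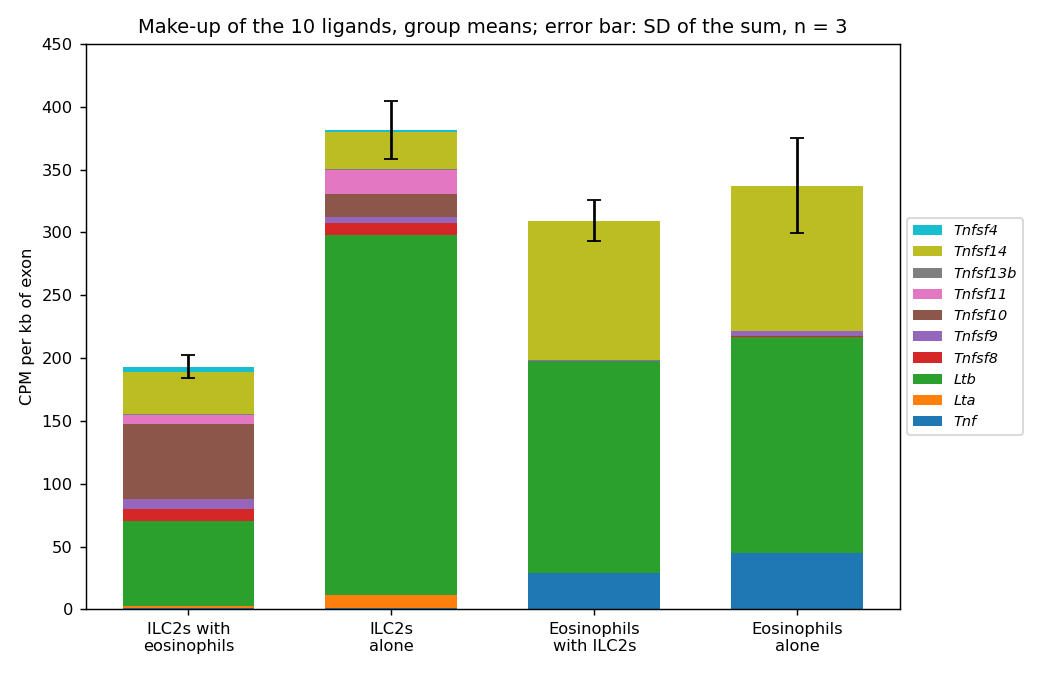
Stacked group means of the 10 ligands in CPM per kb of exon for the 4 groups, with an error bar for the SD of the sum over 3 libraries. Ltb is the broadest segment in every group, at 35.0% of the sum in ILC2s with eosinophils and 75.1% in ILC2s alone, and Tnfsf10 is broad in ILC2s with eosinophils only, at 30.9% there.

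Ltb, Tnf and Lta form 1 gene cluster on chromosome 17 of mm10 and lie in that order. Ltb (ENSMUSG00000024399) lies at chr17:35194439-35196320 on the plus strand, Tnf (ENSMUSG00000024401) at chr17:35199381-35202007 on the minus strand and Lta (ENSMUSG00000024402) at chr17:35203165-35205351 on the minus strand. Ltb and Tnf are 3060 bases apart and Tnf and Lta 1157 bases apart. Sequence before the RefSeq start of these genes is shown because Lta and Ltb fell together in ILC2s while Tnf, between them, did not pass the test there. Tnfsf10, which rose, and Tnfsf11, which fell, are shown beside them. RefSeq promoter entries on GRCm38.p6, the patched form of mm10, matched 8 of the 10 ligands, all but Tnfsf9 and Tnfsf4. Each was searched on both strands in the 250 bases before the RefSeq start for 3 motifs, the NF-kB type (GGG, 2 bases of any kind, T, 2 more of any kind, CC), the STAT type TTCNNNGAA and the TATA box TATAAA. Matches within the printed bases are in capitals. Matches did not overlap one another, and positions count back from -1 at the base before the RefSeq start. The windows are chr17:35194257-35194438 (plus strand), chr17:35205352-35205601 (minus), chr17:35202008-35202257 (minus), chr3:27316827-27317027 (plus) and chr14:78308044-78308293 (minus). For Ltb and Tnfsf10 the printed run stops where the GENCODE gene model begins, at -69 and -50.
Ltb: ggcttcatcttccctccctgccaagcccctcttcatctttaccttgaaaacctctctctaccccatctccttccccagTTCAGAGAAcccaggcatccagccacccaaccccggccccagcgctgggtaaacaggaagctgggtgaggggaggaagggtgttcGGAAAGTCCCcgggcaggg
Lta: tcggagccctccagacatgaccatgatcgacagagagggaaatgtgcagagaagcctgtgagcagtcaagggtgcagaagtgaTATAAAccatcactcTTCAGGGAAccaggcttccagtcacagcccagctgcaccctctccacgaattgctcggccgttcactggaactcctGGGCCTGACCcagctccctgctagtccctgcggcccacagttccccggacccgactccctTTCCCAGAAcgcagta
Tnf: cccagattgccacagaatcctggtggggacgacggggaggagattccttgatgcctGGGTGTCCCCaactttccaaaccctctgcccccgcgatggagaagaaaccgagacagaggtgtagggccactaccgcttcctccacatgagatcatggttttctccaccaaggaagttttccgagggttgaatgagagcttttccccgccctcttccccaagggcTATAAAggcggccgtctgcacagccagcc
Tnfsf10: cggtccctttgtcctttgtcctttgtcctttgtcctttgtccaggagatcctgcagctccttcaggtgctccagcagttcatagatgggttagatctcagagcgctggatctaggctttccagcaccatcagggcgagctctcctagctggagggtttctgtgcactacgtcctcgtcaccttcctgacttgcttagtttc
Tnfsf11: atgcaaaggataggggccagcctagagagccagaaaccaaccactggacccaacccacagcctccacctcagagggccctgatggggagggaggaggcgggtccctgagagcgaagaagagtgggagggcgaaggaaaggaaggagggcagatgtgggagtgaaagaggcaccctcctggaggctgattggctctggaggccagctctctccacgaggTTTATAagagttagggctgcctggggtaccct

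The NF-kB type letters were found before Ltb at -87 to -78 (on the minus strand) and at -39 to -30, before Lta at -76 to -67, before Tnf at -194 to -185 and before Tnfsf14 at -183 to -174. Of 32851 RefSeq promoters of that length, 15.9% held such a match. The Ltb match at -39 to -30 lies past the printed run, before the RefSeq start but inside the GENCODE gene model. The STAT type letters were found before Ltb at -172 to -164 and before Lta at -152 to -144 and -16 to -8, against 7.02% of all promoters. The TATA letters were found before Tnf at -29 to -24, before Lta at -167 to -162 and before Tnfsf11 at -32 to -27 (on the minus strand), against 12.4% of all promoters. The windows of Tnfsf10, Tnfsf8 and Tnfsf13b held none of the 3 motifs. These matches describe letters in a window and are not evidence of binding.

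With eosinophils, ILC2s lost lymphotoxin RNA and RANKL RNA and gained RNA of TRAIL, BAFF, OX40 ligand and 4-1BB ligand. The comparison of ILC2s with eosinophils against ILC2s alone tested all 10 ligands and called 8 of them in edgeR (Benjamini-Hochberg adjusted p under 0.05 over 14438 genes), 5 higher and 3 lower. Coculture changed most of the transcriptome in ILC2s, with 72.4% of all genes tested called, 36.8% higher and 35.6% lower, so the number of ligands called is close to that of genes at large. The ligands' median log2 fold change was 0.16, against 0.0029 over all genes tested. Their responses ranged from -2.61 to 1.82.

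**Figure D2:**
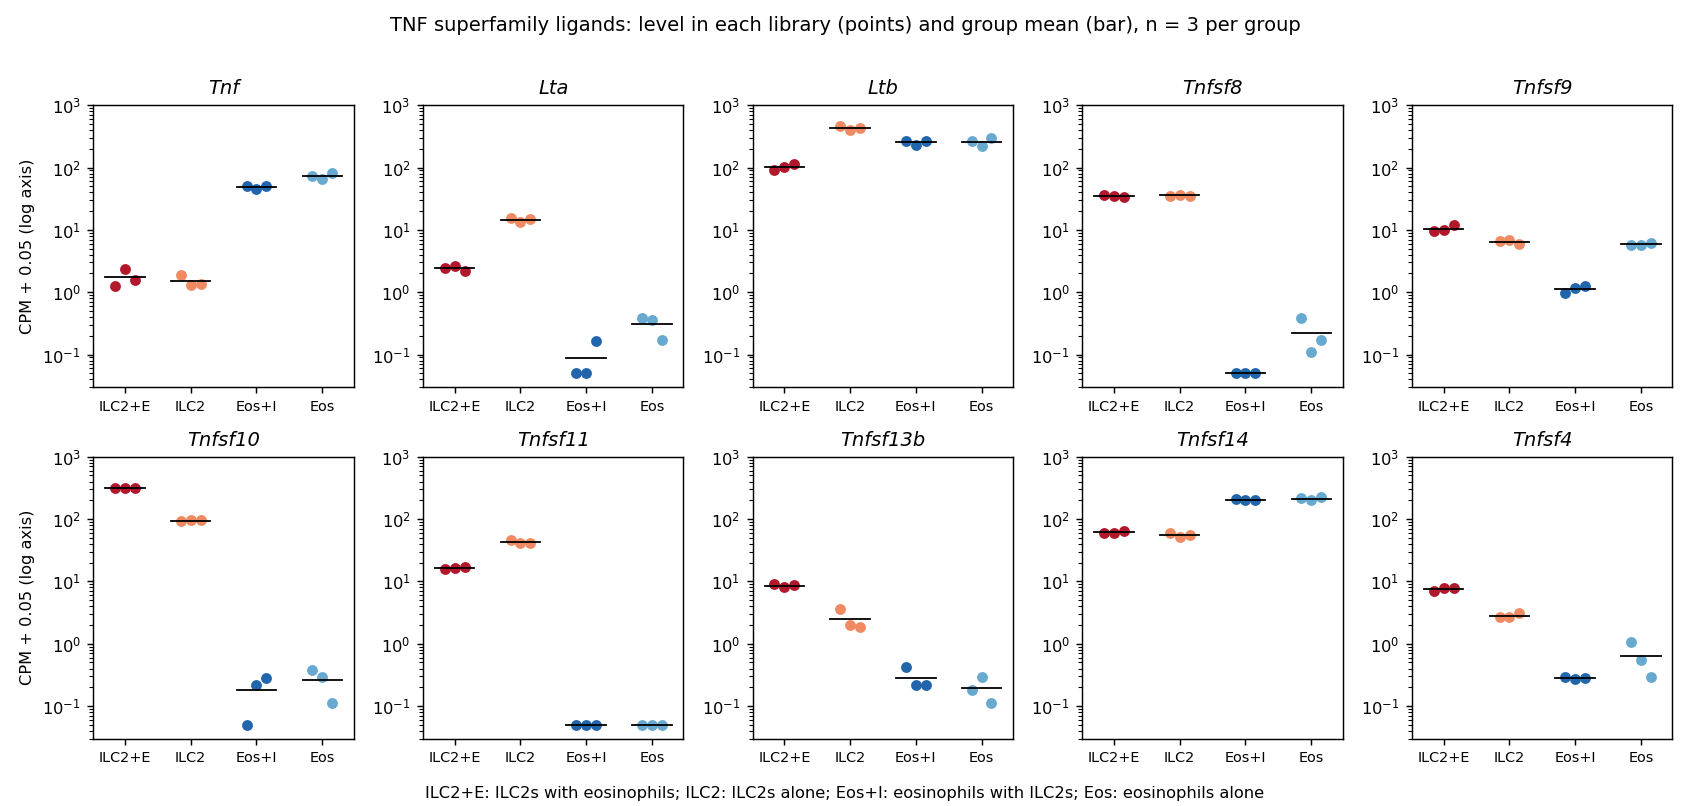
Level of each ligand in each library as CPM + 0.05 on a log axis, with points for the 3 libraries of a group and a bar for their mean. ILC2 groups stand on the left of each panel and eosinophil groups on the right, and the libraries of ILC2s with eosinophils lie apart from those of ILC2s alone for Lta, Ltb, Tnfsf9, Tnfsf10, Tnfsf11, Tnfsf13b, Tnfsf14 and Tnfsf4.

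Lta, the secreted lymphotoxin alpha that also joins lymphotoxin beta in the membrane trimer, had 2.381, 2.615 and 2.174 CPM in ILC2s with eosinophils, against 15.4, 13.1 and 14.8 CPM in ILC2s alone. The groups were far apart, and Lta fell by 2.61 ± 0.14 (log2, SE, edgeR adjusted p = 1.95e-16). Ltb had 92.2, 100.6 and 115.0 CPM in ILC2s with eosinophils, against 464, 405.5 and 434 CPM in ILC2s alone. Every coculture library was below every library alone, and Ltb fell by 2.09 ± 0.056 (adjusted p = 3.04e-23, edgeR). Both subunits of the lymphotoxin trimer were thus lower, and Ltb remained the more abundant per length, at 67.7 against 1.73 CPM per kb in ILC2s with eosinophils and 287 against 10.5 CPM per kb in ILC2s alone. Tnf, the gene between them, had 1.19, 2.35 and 1.52 CPM in ILC2s with eosinophils and 1.87, 1.26 and 1.33 CPM in ILC2s alone. These values overlapped, and the log2 difference of 0.18 ± 0.29 was not called (adjusted p = 0.585, edgeR). It was -0.12 without replicate 2 of ILC2s with eosinophils, the highest of the 6 libraries. Tnf in cocultured ILC2s was 3.51% of its level in cocultured eosinophils and 3.09% in ILC2s alone.

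**Figure D3:**
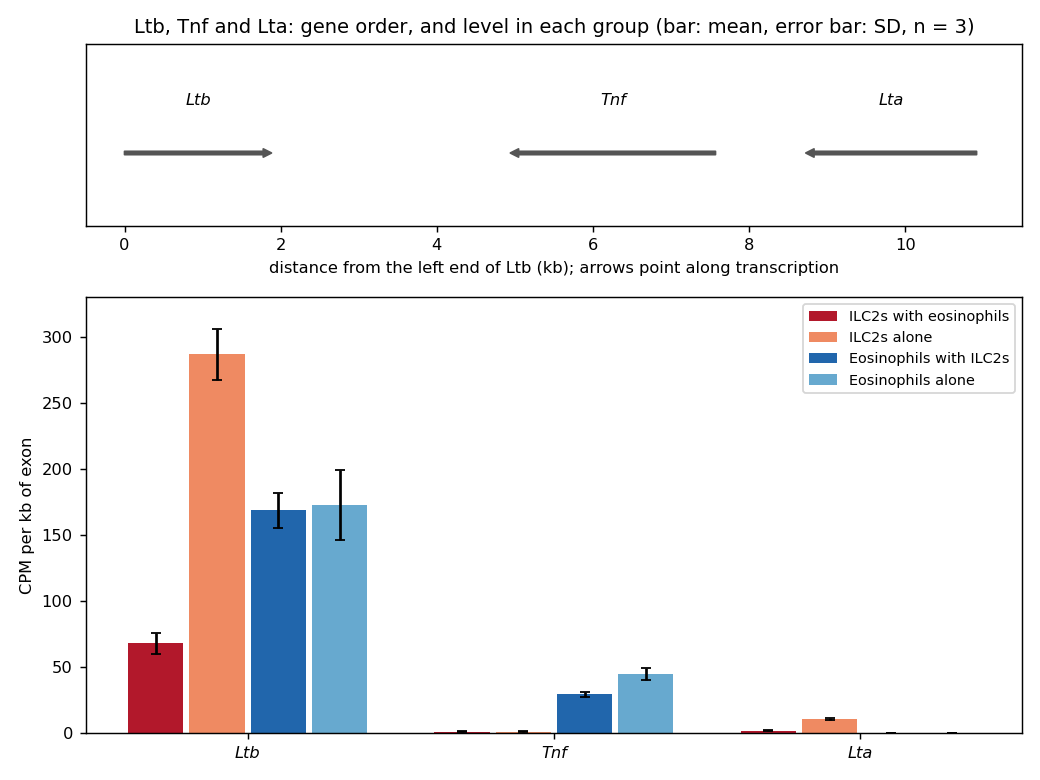
Gene order of Ltb, Tnf and Lta by distance in kb (top) and mean level in CPM per kb of exon with SD over 3 libraries (bottom) in the 4 groups. Lta and Ltb are both lower in ILC2s with eosinophils than in ILC2s alone, whereas Tnf is found mainly in eosinophils, at 29.3 CPM per kb with ILC2s and 44.6 CPM per kb alone.

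Tnfsf11, which encodes RANKL, the ligand that drives osteoclast formation and acts on dendritic cells, was the other ligand that fell. It had 15.7, 16.5 and 16.7 CPM in ILC2s with eosinophils, against 46.8, 41.5 and 41.9 CPM in ILC2s alone. The groups did not overlap, and the change was -1.42 ± 0.072 (log2, SE, edgeR adjusted p = 1.08e-16). Its signalling receptor gene Tnfrsf11a (RANK) was also lower in ILC2s with eosinophils, with 23.9, 25.7 and 25.4 CPM against 41.6, 41.0 and 44.8 CPM in ILC2s alone (log2 change -0.78 ± 0.065, adjusted p = 1.05e-11, edgeR). The decoy receptor gene Tnfrsf11b was too low to be tested.

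Tnfsf10 (TRAIL) had 314, 317 and 311 CPM in ILC2s with eosinophils, against 91.6, 95.6 and 96.7 CPM in ILC2s alone. Replicates lay close together within each group, and Tnfsf10 rose by 1.72 ± 0.039 (log2, SE, edgeR adjusted p = 4.85e-25), the smallest standard error of the 10 ligands. Per length it came near Ltb after coculture, at 59.7 ± 0.581 against 67.7 ± 7.62 CPM per kb for Ltb. Tnfrsf10b, the mouse TRAIL receptor with a death domain, rose as well, to 30.7 ± 2.14 CPM in ILC2s with eosinophils, against 17.4 ± 0.399 CPM in ILC2s alone (0.81 ± 0.077, adjusted p = 1.44e-10, edgeR). The gene of the decoy receptor Tnfrsf23 fell by 1.18 ± 0.32 (adjusted p = 0.00156, edgeR). Tnfrsf22, the other decoy, changed by -0.46 ± 0.18 (adjusted p = 0.0205, edgeR), a call lost without replicate 2 of ILC2s alone (adjusted p = 0.0553) and without replicate 2 or 3 of ILC2s with eosinophils (0.103 and 0.134).

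Tnfsf13b (BAFF, a survival factor for B cells) was low and had 8.89, 8.02 and 8.61 CPM in ILC2s with eosinophils, against 3.60, 1.98 and 1.78 CPM in ILC2s alone. All 3 coculture libraries were higher, and the log2 change was 1.82 ± 0.18 (adjusted p = 4.99e-10, edgeR). Tnfsf4 (OX40 ligand, a costimulator of T cells) had 7.01, 7.67 and 7.88 CPM in ILC2s with eosinophils, against 2.64, 2.61 and 3.07 CPM in ILC2s alone, with no overlap. It rose by 1.42 ± 0.15 (adjusted p = 1.9e-09, edgeR). Tnfsf9 (4-1BB ligand, another costimulator) had 9.57, 9.75 and 11.8 CPM in ILC2s with eosinophils, against 6.57, 6.75 and 5.97 CPM in ILC2s alone. The groups lay apart by less than for the others, and Tnfsf9 rose by 0.69 ± 0.12 (adjusted p = 1.31e-05, edgeR). Of the exon bases of Tnfsf9, 14.9% overlap the antisense gene Gm11110. Because the strand setting of the counting is not given in the sources used here, the counts of Tnfsf9 are uncertain, by a share that is not known.

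Tnfsf14 and Tnfsf8 moved little in ILC2s. Tnfsf14 (LIGHT, which binds HVEM and the lymphotoxin beta receptor) had 60.6, 59.8 and 64.0 CPM in ILC2s with eosinophils, against 59.0, 51.5 and 55.8 CPM in ILC2s alone. The values did not overlap by a small margin, and the log2 change of 0.14 ± 0.054 was called (adjusted p = 0.0194, edgeR). That call was lost without replicate 2 of ILC2s alone (adjusted p = 0.156), without replicate 3 of ILC2s with eosinophils (0.0811) and with upper quartile scaling (0.211), and with scaling by library totals the value was -0.01. Tnfsf8 (CD30 ligand) had 36.1, 34.4 and 34.0 CPM in ILC2s with eosinophils and 35.2, 36.4 and 35.4 CPM in ILC2s alone. The groups overlapped, and the log2 difference of -0.04 ± 0.061 was not called (adjusted p = 0.532, edgeR).

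**Figure D4:**
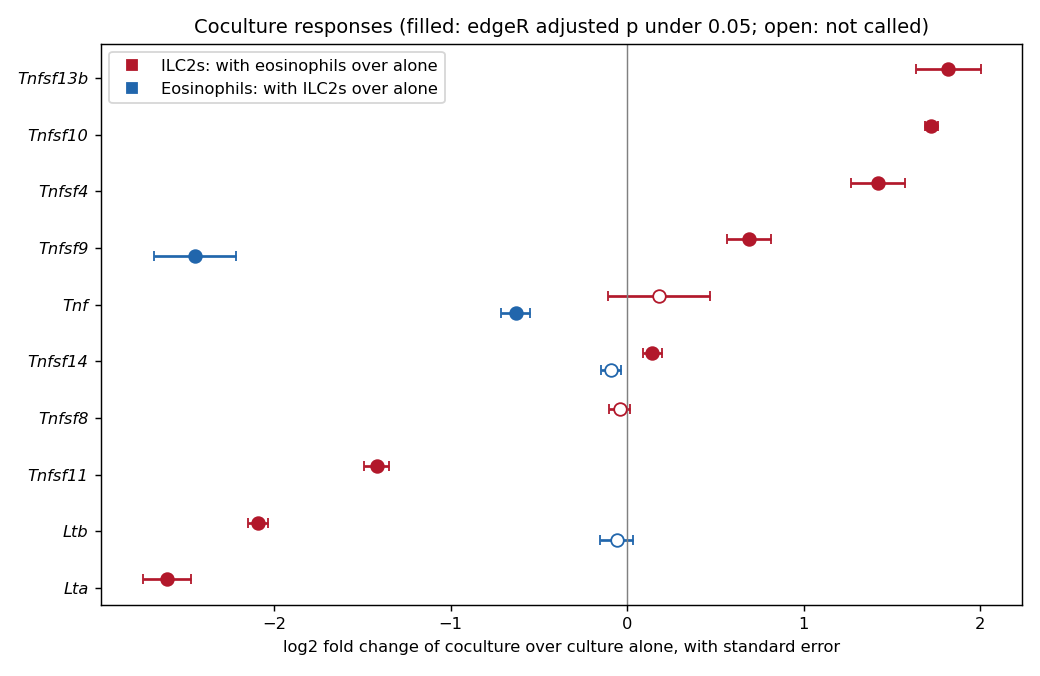
Log2 fold change of coculture over culture alone with its standard error for each ligand in ILC2s (red, 10 ligands tested) and eosinophils (blue, 4 tested), filled where called by edgeR. In ILC2s values run from -2.61 for Lta to 1.82 for Tnfsf13b, and in eosinophils Tnf and Tnfsf9 are called, at -0.63 and -2.45.

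With ILC2s, eosinophils had less RNA of Tnf and of Tnfsf9, and their 2 most abundant ligands, Ltb and Tnfsf14, did not pass the test. The comparison of eosinophils with ILC2s against eosinophils alone could test only 4 of the 10 ligands, of which 2 were called lower and 0 higher in edgeR. Of 13109 genes tested, 24.9% were called, 11.4% higher and 13.5% lower. The median log2 fold change of the 4 ligands was -0.36, against 0.0044 over all genes tested. The other 6 ligands were below the low-count filter.

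Tnf, the founding member of the family and a mediator of acute inflammation, had 49.9, 44.6 and 49.7 CPM in eosinophils with ILC2s, against 72.3, 66.1 and 80.9 CPM in eosinophils alone. The groups did not overlap, and Tnf fell by 0.63 ± 0.081 (log2, SE, edgeR adjusted p = 5.74e-05). Tnfsf9 had 0.926, 1.12 and 1.19 CPM in eosinophils with ILC2s, against 5.74, 5.66 and 6.06 CPM in eosinophils alone. It fell by 2.45 ± 0.23 (adjusted p = 3.46e-06, edgeR), on 56 counts in the cocultured group and 276 counts in the group alone. What remained of Tnfsf9 in cocultured eosinophils was 10.4% of its level in cocultured ILC2s. The ILC2 markers had a median of 0.0937%, with Il7r at 1.85% and Klrg1 at 2.51%. Whether any of this Tnfsf9 RNA came from ILC2s was not tested.

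Ltb had 271, 233 and 263 CPM in eosinophils with ILC2s and 266, 219 and 299 CPM in eosinophils alone. The groups overlapped, and the log2 difference was -0.06 ± 0.092 (adjusted p = 0.697, edgeR). Tnfsf14 had 209, 202 and 201 CPM in eosinophils with ILC2s and 217, 199 and 223 CPM in eosinophils alone, which also overlapped, with a difference of -0.09 ± 0.058 (adjusted p = 0.299, edgeR).

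Some markers of basophils, mast cells and monocytes were lower in eosinophils with ILC2s, as Tnf and Tnfsf9 were. Of the 7 basophil and mast cell markers 5 could be tested, and 3 of these were called lower in edgeR, namely Fcer1a (-1.21 ± 0.23, adjusted p = 0.0015), Cd200r3 (-1.67 ± 0.12, 2.29e-07) and Gata2 (-0.99 ± 0.067, 1.07e-07). Ms4a2 (0.25 ± 0.22, adjusted p = 0.483, edgeR) and Cpa3 (-0.09 ± 0.40, 0.908) were not called. The same 5 averaged at least 1 CPM in both eosinophil groups, and the summed level of the list was 109 to 118 CPM in eosinophils with ILC2s and 222 to 244 CPM in eosinophils alone, most of it Gata2, which eosinophils also express, at 94.1 and 184 CPM. Cd200r3 averaged 12.9 CPM in eosinophils with ILC2s and 40.1 CPM in eosinophils alone. ILC2s held it too, at 26.7 CPM with eosinophils and 49.6 CPM alone. Prss34 was at 0 counts with ILC2s and no marker of the list was at 0 alone, where Prss34 had 5 counts, all in replicate 2. Mcpt8 had 5 counts with ILC2s and 14 counts alone. Both were too low to be tested. Of the 5 monocyte and macrophage markers 3 could be tested, and Ly6c2 was called lower, at 23.1 ± 1.49 CPM with ILC2s and 49.4 ± 5.80 CPM alone (-1.13 ± 0.094, adjusted p = 9.84e-07, edgeR), while Csf1r and Cd14 were not called. ILC2 markers summed to 10.6 to 12.5 CPM in eosinophils with ILC2s and to 16.7 to 20.5 CPM in eosinophils alone. The part of these markers in the ligand changes was not tested.

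The 6 ligands left untested in eosinophils were near the detection limit. Lta had 2 counts over the 3 libraries of eosinophils with ILC2s, all in replicate 3, and 12 counts over those of eosinophils alone, a ratio of 0.153 with a 95% counting interval of 0.0166 to 0.688. That interval reached 1 when replicate 1 or 2 of eosinophils with ILC2s was left out (0.0243 to 1.0 and 0.0254 to 1.05). Tnfsf4 had 4, 4 and 4 counts with ILC2s and 15, 8 and 4 alone, a ratio of 0.408 (0.188 to 0.834) that was 0.628 (0.258 to 1.53) without replicate 1 of eosinophils alone. Tnfsf8 had 0 counts with ILC2s and 5, 1 and 2 alone. It was at least 2.902-fold lower with ILC2s when 3 counts over the group are taken as the limit, but without replicate 1 of eosinophils alone 3 counts remained and no fold can be given. Leaving out libraries for these ratios was chosen after the data were seen. Tnfsf10 had 7 counts with ILC2s and 10 alone, a ratio of 0.643 (0.208 to 1.87). Tnfsf13b had 12 counts with ILC2s and 7 alone, a ratio of 1.58 (0.572 to 4.72). For Tnfsf10 and Tnfsf13b no difference was detectable at this depth, and Tnfsf11 had 0 counts in all 6 eosinophil libraries. These intervals cover counting error only.

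The coculture responses of the 4 ligands tested in both cells were compared directly, as the response of ILC2s minus that of eosinophils in a fit of all 12 libraries, in which 51.5% of 15745 genes were called, 26.8% higher and 24.8% lower. Ltb differed by -2.05 ± 0.13 (log2, SE, edgeR adjusted p = 2.41e-12) and Tnfsf9 by 3.11 ± 0.24 (adjusted p = 1.68e-10, edgeR). Ltb thus fell in ILC2s beyond its change in eosinophils, and Tnfsf9 was higher in cocultured ILC2s but lower in cocultured eosinophils. Tnf differed by 0.80 ± 0.26 (adjusted p = 0.0124, edgeR), and that call was lost without replicate 2 of ILC2s with eosinophils (0.50, adjusted p = 0.127) and with limma-voom (0.76, adjusted p = 0.0722). Tnfsf14 differed by 0.21 ± 0.084 (adjusted p = 0.038, edgeR), and its call was lost when replicate 2 or 3 of ILC2s alone, replicate 3 of ILC2s with eosinophils, replicate 1 or 3 of eosinophils alone or replicate 2 or 3 of eosinophils with ILC2s was left out (adjusted p = 0.0569 to 0.126). It was also lost with DESeq2 size factors (adjusted p = 0.0518), upper quartile scaling (0.145) and no filter on low counts (0.122), and with library totals the difference was 0.02 (adjusted p = 0.855).

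Between the cell types, Tnf and Tnfsf14 were higher in eosinophils in both culture conditions. Lta, Tnfsf8, Tnfsf10, Tnfsf11, Tnfsf13b and Tnfsf4, here called ILC2 ligands, were higher in ILC2s in both conditions. Tnfsf14 was found in both cells, with 55.4 CPM in ILC2s alone and 61.5 CPM in ILC2s with eosinophils. It had 213 CPM in eosinophils alone and 204 CPM in eosinophils with ILC2s. ILC2s alone against eosinophils alone gave 7 ligands higher and 2 lower in edgeR, where 80.7% of 14525 genes were called, 40.8% higher and 39.9% lower. ILC2s with eosinophils against eosinophils with ILC2s gave 7 higher and 3 lower, where 84.0% of 14634 genes were called, 43.6% higher and 40.5% lower. The 6 ILC2 ligands passed the low-count filter through the ILC2 libraries and had to differ, so their calls add nothing to their levels. The cell type comparisons share libraries with the coculture comparisons above. With library totals in place of TMM, the median over all genes shifted by 0.57 (log2) in the comparison of cells alone and by 0.40 in that of cocultured cells, and the share of called genes that were higher in ILC2s was 70.1% and 65.8%, against 50.5% and 51.8% with TMM. No ligand turned its direction between the cell types under it.

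Tnf was far higher in eosinophils, with log2 differences of -5.62 ± 0.13 for ILC2s alone over eosinophils alone (adjusted p = 6.01e-15, edgeR) and -4.85 ± 0.13 for the cocultured cells (9.19e-24). Tnfsf14 was lower in ILC2s by -1.93 ± 0.067 alone (6.76e-13, edgeR) and by -1.74 ± 0.051 in coculture (4.28e-23). Ltb changed its order between the conditions. ILC2s with eosinophils had less Ltb than eosinophils with ILC2s (-1.32 ± 0.064, adjusted p = 1.42e-17, edgeR), while ILC2s alone had more than eosinophils alone (0.74 ± 0.088, adjusted p = 1.73e-06). Tnfsf9 did not pass the test between cells alone (0.15 ± 0.15, adjusted p = 0.382, edgeR), and was called there with library totals (0.72, adjusted p = 0.00048) and with upper quartile scaling (0.38, 0.0311). Between the cocultured cells it was higher in ILC2s by 3.24 ± 0.20 (adjusted p = 3.24e-15, edgeR).

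The ILC2 ligands are given by their counts, because eosinophils held so few. Tnfsf11 was at least 280.1-fold higher in ILC2s with eosinophils than in eosinophils with ILC2s and at least 682.1-fold higher in ILC2s alone than in eosinophils alone, with 3 counts over the eosinophil group as the limit. Tnfsf10 was 2320 times higher in cocultured ILC2s (counting interval 1120 to 5760) and 450 times higher in ILC2s alone (244 to 938). Tnfsf8 was at least 598.5-fold higher in cocultured ILC2s and 211 times higher in ILC2s alone (107 to 490). Without replicate 1 of eosinophils alone, which held 5 of its 8 counts, the fitted log2 difference of Tnfsf8 between cells alone was 8.50, against 7.68 with it. Lta was 61.5 times higher in cocultured ILC2s (16.8 to 512) and 57.2 times higher in ILC2s alone (32.6 to 111), and without replicate 3 of eosinophils with ILC2s the eosinophil count of the cocultured comparison was 0. Tnfsf13b was 36.6 times higher in cocultured ILC2s and 16.0 times higher in ILC2s alone. Tnfsf4 was 32.3 times higher in cocultured ILC2s and 4.92 times higher in ILC2s alone, and in the comparison of cells alone its fitted log2 difference was 2.89 without replicate 1 of eosinophils alone, against 2.27 with it.

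By mean level the groups fell in different orders. For Tnfsf9, Tnfsf10, Tnfsf13b and Tnfsf4 the order began with ILC2s with eosinophils and then ILC2s alone, and in all of these the ILC2 groups lay apart. For Lta, Ltb, Tnfsf8 and Tnfsf11 ILC2s alone were highest, and of these ligands Tnfsf8 was the one for which they overlapped with the next group, ILC2s with eosinophils. For Tnf and Tnfsf14 eosinophils alone were highest, followed by eosinophils with ILC2s, whose libraries lay apart for Tnf and overlapped for Tnfsf14. Ltb had ILC2s with eosinophils lowest of all, and the eosinophil groups, which overlapped each other, between the ILC2 groups.

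In ILC2s the receptor genes of CD30 ligand, 4-1BB ligand and OX40 ligand rose, and in eosinophils Tnfrsf13b, a receptor gene of BAFF, fell. In ILC2s with eosinophils against ILC2s alone, 12 of the 15 receptor genes could be tested, and 6 were higher, 5 lower and 1 not called in edgeR, with a median log2 fold change of 0.37, beside 72.4% of all genes called, 36.8% higher and 35.6% lower, with a median of 0.0029. Tnfrsf8, the receptor CD30 of the Tnfsf8 ligand, had 533, 487 and 441 CPM in ILC2s with eosinophils, against 1.06, 0.450 and 0.209 CPM in ILC2s alone. It rose by 9.82 ± 0.12 (adjusted p = 7.53e-31, edgeR), or 10.56 without replicate 1 of ILC2s alone, while its ligand Tnfsf8 was not called. Tnfrsf9 (4-1BB), the receptor of the Tnfsf9 ligand, had 36.8, 32.0 and 30.2 CPM in ILC2s with eosinophils, against 1.68, 2.07 and 2.23 CPM in ILC2s alone, and rose by 4.02 ± 0.12 (adjusted p = 4.88e-22, edgeR). Ligand and receptor thus both rose for the 4-1BB pair.

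Tnfrsf4 (OX40) rose in ILC2s together with its ligand, to 13.1 ± 1.13 CPM with eosinophils, against 5.02 ± 1.18 CPM alone (1.35 ± 0.13, adjusted p = 4.1e-10, edgeR). Tnfrsf1b, the TNF receptor without a death domain, was at 184 ± 4.98 CPM with eosinophils and 94.0 ± 4.69 CPM alone (0.96 ± 0.042, adjusted p = 2.97e-18). Tnfrsf1a, the TNF receptor with a death domain, changed by -0.36 ± 0.16 (adjusted p = 0.044, edgeR), a call that DESeq2 (0.0769), limma-voom (0.0644), no filter on low counts (0.0618) and leaving out replicate 1 or 3 of ILC2s alone (0.227 and 0.113) or replicate 1 or 2 of ILC2s with eosinophils (0.108 and 0.182) ended. Tnfrsf14 (HVEM, the receptor of LIGHT) fell by 0.85 ± 0.090 (adjusted p = 1.52e-09, edgeR). Ltbr, the lymphotoxin beta receptor, rose by 2.24 ± 0.49 (adjusted p = 0.000178, edgeR) but stayed under 1.1 CPM in every ILC2 library. Tnfrsf13b (TACI, a receptor of BAFF) was not called (-0.07 ± 0.11, adjusted p = 0.555), and the other BAFF receptor genes, Tnfrsf13c and Tnfrsf17, were too low to be tested.

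In eosinophils with ILC2s against eosinophils alone, 10 of the 15 receptors were tested, with 1 higher, 2 lower and 7 not called in edgeR and a median log2 fold change of -0.11, beside 24.9% of all genes called and a median of 0.0044. Tnfrsf13b had 70.8, 68.6 and 65.2 CPM in eosinophils with ILC2s, against 171, 154 and 168 CPM in eosinophils alone, and fell by 1.30 ± 0.064 (adjusted p = 5.42e-09, edgeR). Tnfrsf9 fell by 1.51 ± 0.33 (adjusted p = 0.00444, edgeR) to 1.09 ± 0.436 CPM, against 3.05 ± 0.388 CPM alone, so that receptor and ligand of the 4-1BB pair were both lower. Ltbr was at 18.2 ± 1.92 CPM with ILC2s and 14.0 ± 1.49 CPM alone (0.35 ± 0.12, adjusted p = 0.0496, edgeR). That call was lost with upper quartile scaling, DESeq2, limma-voom and a stricter filter, with adjusted p of 0.0525 to 0.0659, and when replicate 2 or 3 of eosinophils alone or any replicate of eosinophils with ILC2s was left out.

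**Figure D5:**
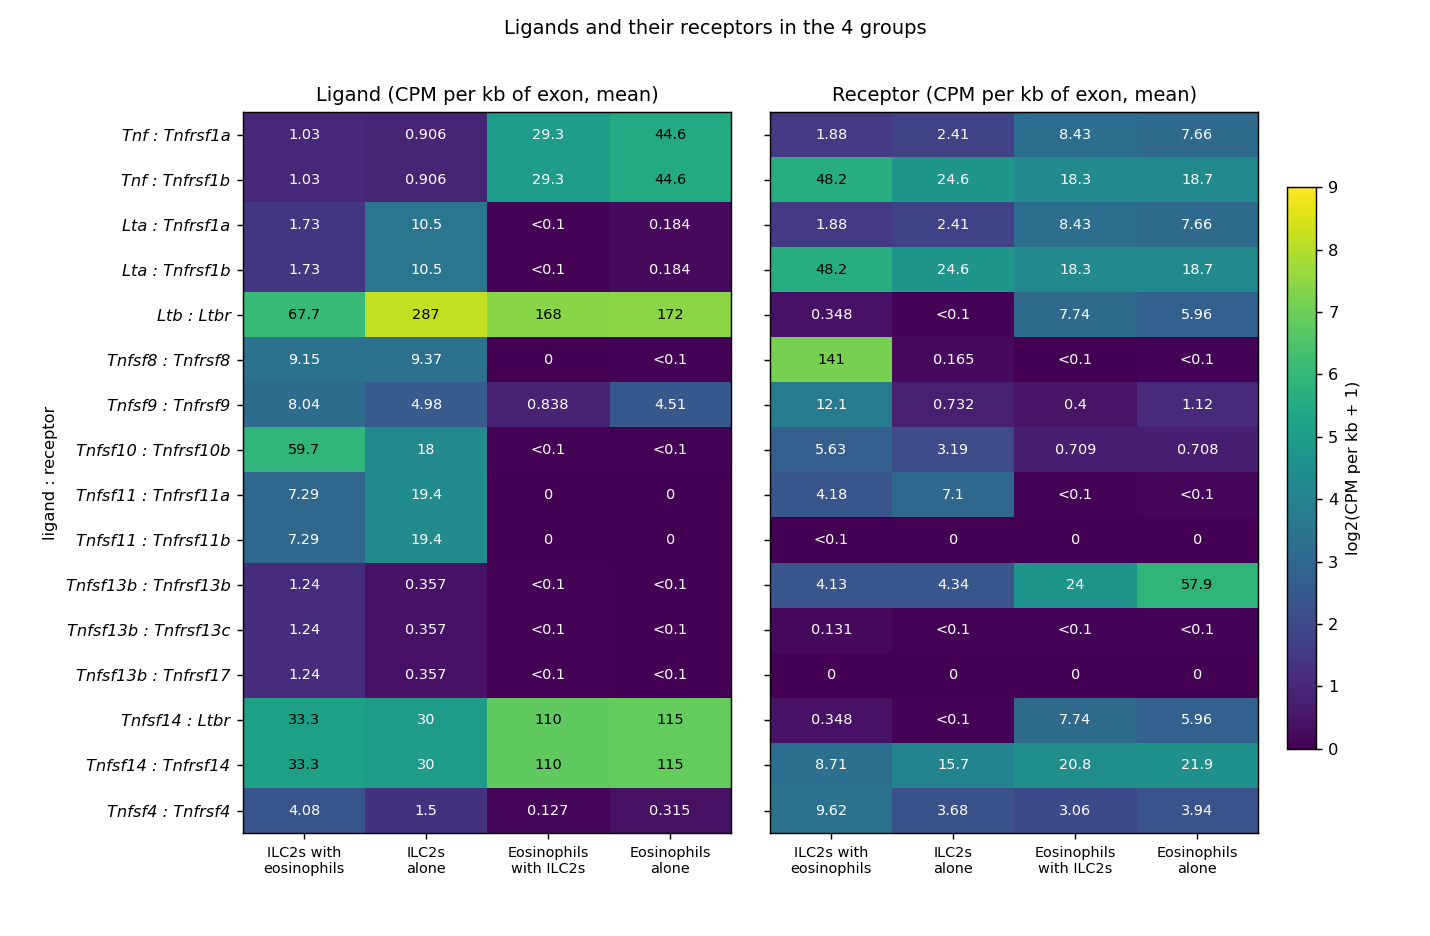
Mean level in CPM per kb of exon of each ligand (left) and of its known receptors (right) in the 4 groups, coloured by log2(CPM per kb + 1), with the level printed in each cell. Tnfrsf8 stands out in ILC2s with eosinophils, at 141 against 0.165 CPM per kb in ILC2s alone, beside Tnfsf8 at 9.15 and 9.37 CPM per kb.

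The superfamily has 8 further ligand genes in the table, most of them near 0. In ILC2s with eosinophils against ILC2s alone 4 of the 8 were tested, with 1 higher and 1 lower in edgeR, where 72.4% of all genes were called. Cd70, which lies between Tnfsf9 and Tnfsf14 on chromosome 17, 38.24 kb and 39.71 kb away, had 45 counts over ILC2s with eosinophils and 3 counts over ILC2s alone, a ratio of 15.3 with a counting interval of 4.9 to 76.8. Its fitted log2 change was 3.75 ± 0.69 (adjusted p = 1.81e-05, edgeR), or 4.68 without replicate 1 and 3.08 without replicate 3 of ILC2s alone. Tnfsf18 (GITR ligand), 76.24 kb from Tnfsf4 on chromosome 1, had 14 counts with eosinophils and 41 alone (-1.52 ± 0.53, adjusted p = 0.0122, edgeR), a call lost without replicate 1 of ILC2s with eosinophils (0.104) and without replicate 1 of ILC2s alone (0.0586). Cd40lg, the CD40 ligand, had 33 counts with eosinophils and 49 alone and was not called (-0.57 ± 0.43, adjusted p = 0.237, edgeR). Tnfsf12 (TWEAK) had 110 and 75 counts (0.59 ± 0.32, adjusted p = 0.0998, edgeR), and was called without replicate 3 of ILC2s with eosinophils (0.86, adjusted p = 0.0212). Of the untested ligands Fasl had 4 counts with eosinophils and 2 alone, Tnfsf13 (APRIL) 9 and 8, Tnfsf15 10 and 9 and Eda 3 and 5. In eosinophils with ILC2s against eosinophils alone only Tnfsf12 was tested of the 8, with 325 and 294 counts (-0.01 ± 0.16, adjusted p = 0.986, edgeR). There Fasl had 0 counts with ILC2s and 2 alone, Tnfsf13 18 and 13 and Tnfsf15 4 and 5, and Cd40lg, Cd70, Tnfsf18 and Eda had 0 in both groups. Counts of Tnfsf12 and Tnfsf13 are uncertain, because 48.3% and 73.5% of their exon bases overlap other genes, the joint gene Tnfsfm13 among them.

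Genes that carry the receptor signal were called about as often in ILC2s as genes at large. Of 20 signalling genes tested there, 8 were higher and 7 lower in coculture in edgeR, with a median log2 fold change of -0.08, beside 72.4% of all genes called. The 4 with the smallest p were Traf1, an adaptor induced by NF-kB (-0.76 ± 0.038, edgeR adjusted p = 1.04e-16), the initiator caspase gene Casp8 (0.88 ± 0.045, 1.47e-16), its inhibitor Cflar (-0.47 ± 0.044, 1.1e-10) and the ubiquitin ligase gene Birc3 (0.43 ± 0.043, 4.53e-10). In eosinophils 5 of the 20 were higher and 4 lower, with a median of 0.11, beside 24.9% of all genes called, and the first 4 were Birc3 (0.62 ± 0.051, edgeR adjusted p = 8.53e-07), Traf1 (-1.32 ± 0.11, 1.07e-06), Relb (0.67 ± 0.085, 5.27e-05) and Rel (0.53 ± 0.075, 0.000142), the last pair NF-kB subunits.

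The list of genes that process ligand proteins or bind ligand messenger RNAs held 13. In ILC2s 12 were tested, with 2 higher and 6 lower in edgeR and a median of -0.17, where 36.8% of all genes were called higher and 35.6% lower. Furin, a protease that cleaves precursor proteins including BAFF, rose by 2.23 ± 0.038 (adjusted p = 7.14e-28, edgeR), to 1161 ± 6.92 CPM with eosinophils, against 246 ± 6.36 CPM alone. Zfp36l2 and Zfp36l1, which encode proteins that bind AU-rich elements and promote decay of messenger RNA, fell by 1.47 ± 0.037 (4.54e-24, edgeR) and 0.70 ± 0.053 (1.3e-12), and Elavl1, whose protein stabilises such messenger RNAs, rose by 0.62 ± 0.044 (2.82e-13). Of the exon bases of Zfp36l1, 55.9% overlap the antisense gene Gm26669, so its counts are uncertain in the way given for Tnfsf9. In eosinophils 11 were tested, with 3 higher and 4 lower in edgeR and a median of -0.06, where 11.4% of all genes were called higher and 13.5% lower. Furin fell there by 0.71 ± 0.050 (1.71e-07, edgeR), Zfp36, whose protein promotes decay of the Tnf messenger RNA, by 0.79 ± 0.055 (1.74e-07) and Rhbdf2, a partner of the TNF sheddase ADAM17, by 0.45 ± 0.054 (3.27e-05), while Zfp36l2 rose by 0.50 ± 0.052 (9.04e-06).

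Likeness of pattern was read as Pearson's r of log2(CPM + 1) over the 12 libraries, which form 4 tight groups, so that a high r describes the group means and is no test. The genes were the 10022 that averaged at least 10 CPM in some group. Tnfsf10 was most like Ccr8 (r = 0.9997), a chemokine receptor gene with 98.6 CPM in ILC2s with eosinophils, 38.0 in ILC2s alone and under 0.1 in both eosinophil groups, and then Aebp2 and Dkk3. Tnfsf9 was most like Ndrg1 (r = 0.9909), with 126 CPM in ILC2s with eosinophils, 65.3 in ILC2s alone, 3.54 in eosinophils with ILC2s and 43.5 in eosinophils alone, and then Akr1c12 and Lat2. Ltb was most like Phf1 (r = 0.9883), with 68.2, 208, 141 and 153 CPM in the same order of groups, and then Abtb1 and Ptpn18. Tnfsf11 was most like Eya2, Anks6 and Vipr2 (r = 0.9995 each). Lta was most like Slc27a6 (0.996), Tgfbr2 and Gm26614, Tnfsf8 like Gdpd5, Jcad and Pxdc1, Tnf like 4632428C04Rik, Slc9a3r1 and Stk40, and Tnfsf14 like Cebpb (0.999), Taldo1 and Alas1. Among the 8 ligands that reached 10 CPM in some group, which leaves out Tnfsf13b and Tnfsf4, Tnf and Tnfsf14 were most alike (r = 0.994), and Ltb was the one least like any other of the 8, with its highest r at 0.3206, to Lta.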

How the data were processed

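RNA of 12 mouse libraries in 4 groups of 3, set by the submitters' labels, was sequenced after Trizol extraction and NEBNext Ultra II library preparation, per the labels' protocols. The authors deposited whole-number read counts per gene, not normalized. Build mm10, featureCounts and Subread 1.5.2, the aligner STAR 2.5.2b, Trimmomatic 0.36 and bcl2fastq 2.17 appear in the submitters' processing notes. The annotation, the strand setting and how multimapping reads were treated were not given in the sources used here. GENCODE M21 on that build gave symbols for 48970 of 49315 genes and exon lengths.

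The quasi-likelihood F test of edgeR 4.0.16 (R 4.3.3) was run on the whole table for each comparison, after filterByExpr and TMM, with group as the only term. A gene was called where its p, adjusted by Benjamini-Hochberg over all genes tested, was under 0.05. Pairwise comparisons used 6 libraries, and the difference of responses used all 12. The standard error is the log2 fold change divided by the square root of F. Replicates varied with a common biological coefficient of 4.71% in ILC2s and 7.92% in eosinophils. Replicates differed by more than counting error (chi-square per degree of freedom 2.57 to 19.5), so they were not the same library sequenced again. That check cannot tell whether they came from separate cultures or mice. Ratios of counts carry exact binomial 95% intervals, and 3 counts served as the limit for a group at 0. On simulated counts for the ILC2 comparison 89.6% of 2-fold changes were recovered, and 85.1% for the eosinophil comparison. For 1.5-fold changes these shares were 71.6% and 77.6%. Only 200 genes were changed in each simulation, so recovery where most genes move was not tested.

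The ligands and gene lists were chosen with earlier results of these data known. All ligands and their receptors are named. So are all further ligands by value or count, up to 4 called genes of the signalling and processing lists by smallest p in each coculture comparison, and the 3 most alike genes of each ligand with at least 10 CPM. Alternatives were DESeq2 size factors, library totals, upper quartile scaling, the DESeq2 1.42.0 test, limma-voom (limma 3.58.1), no filter, at least 1 CPM in 3 libraries, all 12 libraries in 1 fit, a replicate block, and each library left out. Count ratios of ligands under the filter in eosinophils were also taken with 1 library left out, an alternative chosen after the data were seen.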

Additional observations from a re-analysis of the deposited data

Results flagged for a closer look

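The difference between the coculture responses of ILC2s and eosinophils passed the test in edgeR over all 12 libraries for the 4 ligands tested in both cells, and for Tnf and Tnfsf14 that call depended on the setting. Ltb differed by -2.05 (adjusted p = 2.41e-12), with a change of -2.09 in ILC2s and -0.06 in eosinophils, and was lower in 3 of 3 ILC2 coculture libraries than in any ILC2 library alone. Tnfsf9 differed by 3.11 (adjusted p = 1.68e-10, edgeR), with 0.69 in ILC2s and -2.45 in eosinophils, and the libraries of the groups were apart in both cells. Tnf differed by 0.80 (adjusted p = 0.0124, edgeR), with 0.18 in ILC2s, where the groups overlapped, and -0.63 in eosinophils, where they did not. That call was lost with limma-voom (adjusted p = 0.0722) and without replicate 2 of ILC2s with eosinophils (0.127). Tnfsf14 differed by 0.21 (adjusted p = 0.038, edgeR), with 0.14 in ILC2s and -0.09 in eosinophils. That call was lost with DESeq2 size factors (0.0518), library totals (a difference of 0.02, adjusted p = 0.855), upper quartile scaling (0.145), no filter on low counts (0.122) and without 1 of 7 libraries (0.0569 to 0.126).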

How the results depend on the processing

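The counts of ligands called higher and lower stayed within 1.5 times their value in all 5 comparisons and under every alternative run, except that 4 ligands were called lower in eosinophils with ILC2s when all 12 libraries were fitted together, against 2. The added pair was Lta (adjusted p = 0.0343) and Tnfsf8 (0.00831, edgeR), which passed the filter there through the ILC2 libraries. Among the 10 ligands, none called at 0.3 or more on the log2 scale in ILC2s with eosinophils against ILC2s alone or in eosinophils with ILC2s against eosinophils alone lost its call or direction under an alternative run, while the further ligand Tnfsf18 lost its call in ILC2s without 1 library (adjusted p = 0.0586 and 0.104). Signs turned in values not called or near 0. With library totals these were Tnfsf14 in ILC2s (-0.0136), and Tnfsf12 (0.0497) and Tnfrsf10b (0.0303) in eosinophils. In eosinophils Tnfsf12 also turned with no filter (0.00553) and with all 12 libraries (0.0235), and Tnfrsf10b with all 12 libraries (0.00453). With 1 library left out, ILC2 values ranged from -0.121 to 0.382 for Tnf and from -0.138 to 0.0362 for Tnfrsf13b. Eosinophil values ranged from -0.172 to 0.0404 for Ltb, from -0.0585 to 0.0897 for Tnfsf12, from -0.136 to 0.0609 for Tnfrsf10b and from -0.201 to 0.0114 for Tnfrsf14. The causes were not tested. With library totals Tnfsf8 was called lower in ILC2s (-0.20, adjusted p = 0.00495, edgeR). The difference of responses for Tnf was 0.76 with limma-voom (adjusted p = 0.0722).

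Replicate numbers gave no sign of pairing in ILC2s, with same-number correlations of -0.0147 to 0.00927 and different-number ones of -0.0254 to 0.0341. In eosinophils the same-number correlations were all positive, at 0.0213 to 0.228, against -0.214 to 0.147 for different numbers. Whether replicate numbers pair the eosinophil libraries is thus not settled. With the replicate block the same numbers of ligands were called, 5 higher and 3 lower in ILC2s and 0 higher and 2 lower in eosinophils, while genes called came to 10422 in ILC2s and 4168 in eosinophils, against 10454 and 3264 without it. Under library totals the median over all genes shifted by -0.16 in ILC2s, and the share of called genes that were higher in eosinophils with ILC2s was 58.0% with them, against 45.7% with TMM, and that of the difference of responses 39.6%, against 52.0%. Depth limits the 6 ligands with at most 27 counts in an eosinophil group.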

Other observations

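Markers of other cells were also read in ILC2s. Of 7 basophil and mast cell markers only Cd200r3 averaged 1 CPM or more in ILC2s, and the list summed to 24.5 to 33 CPM with eosinophils and 49.2 to 53.0 CPM alone, where Fcer1a, Ms4a2 and Prss34 were at 0 counts. Of 7 T and NK cell markers the highest was Cd3g, at 81.1 CPM with eosinophils and 69.2 CPM alone, which was most of the list. Cd3d was also higher with eosinophils (1.005 and 0.448 CPM), while Cd3e (3.68 and 4.37 CPM) and Foxp3 (1.07 and 2.03 CPM) were lower. Cd8a, Ncr1 and Klrb1c were near 0 in both groups. The list summed to 82.5 to 90.4 CPM with eosinophils and 74.9 to 78.5 CPM alone, with Ncr1 at 0 counts with eosinophils and Cd8a at 0 counts alone. Their part in the ligand changes was not tested. In eosinophils the monocyte and macrophage list summed to 494 to 528 CPM with ILC2s and 466 to 531 CPM alone, nearly all of it Csf1r, at 481 and 441 CPM, of whose exon bases 15.1% overlap Hmgxb3. Of that list Ly6c2 was lower with ILC2s, at 23.1 and 49.4 CPM (adjusted p = 9.84e-07, edgeR), and its part in the ligand changes was not tested. The B cell list summed to 19.4 to 21.5 CPM with ILC2s and 14.3 to 16.9 CPM alone, and the neutrophil list to 6.74 to 7.73 CPM with ILC2s and 6.68 to 10.1 CPM alone, with Camp at 0 counts in both groups.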
